A study of Sus scrofa with 16 samples.

Results

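Long peaks are the stretches of 3000 bp or more that were called as enriched for methylated DNA in pig heart. They were chosen by their length alone, on chromosomes 1 to 18, from 4 deposited peak lists. In all, 34644 of the 1068880 peaks on these chromosomes were long, and the lists held 1159046 peaks when X and the unplaced scaffolds were included. Methylated DNA immunoprecipitation sequencing (MeDIP-seq) was applied to the hearts of 16 castrated boars, labelled male and 6 months of age. The Tibetan breed was sampled in the highland (TH) and the lowland (TL), and so was the Yorkshire breed (YH and YL), with 4 animals and 1 list per group. TH and YH were conceived and raised at high elevation, and TL and YL at low elevation. YH and TL came from stocks that had been moved to the other elevation and bred there before the study, so breed and the history of a stock cannot be told apart in them.

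In MeDIP-seq, sheared DNA is pulled down with an antibody against 5-methylcytosine, and stretches with many methylated CpG sites gather many reads. Most CpG sites of mammalian DNA are methylated, but they are sparse, so a broad peak marks a stretch where methylated sites follow each other closely over a long distance. The ends of mammalian chromosomes are known to be rich in GC and CpG. The fold enrichment of a peak is a ratio to a background estimate that the caller gives, and the tags of a peak are the reads counted in it. No sequence of the domains is shown, since the genome of the build used (Sscrofa10.2) was not used here.

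Each list appears to hold the joined peaks of its animals without their names, which no label states, and at most 4 peaks lay over any summit. The rows of YH, TL and YL each fell into 4 sections within which no peaks overlapped. In TH 1 such section could be separated, and the rest of that list held overlapping peaks. The 13 sections held 55989 to 104836 peaks and 1480294 to 4372936 tags in peaks. In 5 sections (1 of TH, 2 of YH and 2 of YL) X held 3.51% to 3.68% of the peaks, and in the other 8 it held 1.23% to 1.79%, although all animals were labelled male. Long peaks made up 2.92% to 5.75% of the autosomal peaks in the former sections and 1.16% to 4.45% in the latter, so the 2 ranges overlapped. Without the sections with the higher X share, the results on chromosome ends, tags per kb, fold enrichment and central summits given here were nearly the same (for the ends, 34 percentage points in place of 33.8), and for the other results its part was not tested. The sections are given as values because no label ties them to animals.

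YL had the most long peaks and TL the fewest. TL had 5514 long peaks, which were 2.29% of its autosomal peaks (95% Wilson interval, 2.23% to 2.35%). TH had 7639 (2.95%, 2.89% to 3.02%), YH had 9436 (3.58%, 3.51% to 3.65%) and YL had 12055 (3.94%, 3.88% to 4.01%). Both Yorkshire lists therefore lay above both Tibetan lists in number and in share, but the intervals cover counting error only. The spread between sections was far wider than these intervals. Long peaks made up 1.16% to 3.71% of the peaks in the sections of TL, 3.12% to 4.45% in those of YH and 1.45% to 5.75% in those of YL, and 2.92% in the section of TH. The sections of TL and YL overlapped, and 1 section of YL (1.45%) lay below 3 of the 4 sections of TL. No test was made of these numbers, because the length chose the peaks and the sections have no names.

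**Figure D1:**
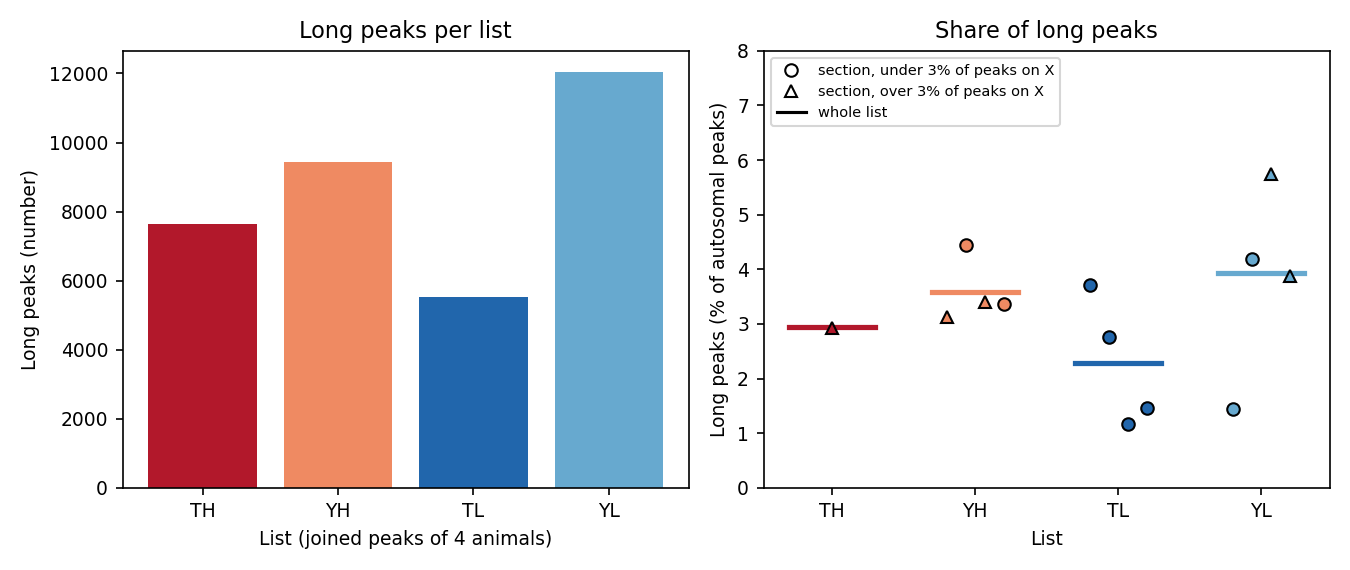
Left, number of long peaks in each list; right, long peaks as a percentage of autosomal peaks, with a line for the whole list and a symbol for each section (triangles, sections with over 3% of their peaks on X). The lists run from 2.29% in TL to 3.94% in YL, while single sections run from 1.16% to 5.75%.

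Most long peaks were only a little above the minimum. The median length was 3520.5 bp in TL, 3557 bp in TH, 3565 bp in YH and 3591 bp in YL, and 69% (YL) to 73.7% (TL) of them were under 4000 bp. Peaks of 6000 bp or more numbered 68 in TL, 135 in TH, 151 in YH and 232 in YL. The longest peak was 8146 bp in TL, 8421 bp in TH, 7714 bp in YH and 7830 bp in YL. Although few in number, long peaks held 7.53% of all peak bases in TL, 9.36% in TH, 10.8% in YH and 11.9% in YL. Their share of the tags was larger, at 9.53%, 12%, 13.4% and 14.7% in the same order.

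Long peaks were gathered at the ends of the chromosomes. The outer 10% at each end held 59.4% of the long peaks in TL, 60.9% in TH, 57.7% in YH and 55.0% in YL. The same stretches held 24.7%, 24.9%, 24.4% and 23.8% of the shorter peaks. The difference averaged 33.8 percentage points over the 4 lists, and it was positive in 4 of 4 lists. The two-sided exact sign-flip permutation test over the lists gave p = 0.125, which is the smallest value that 4 lists allow, so the design cannot reach 0.05. Against peaks of 2000 bp up to under 3000 bp the difference was 12.6 points. Long peaks were more often at the ends than shorter peaks on 18 of 18 chromosomes in each list. The sections showed the same order, with 52.1% to 64.6% of long peaks and 23.3% to 25.1% of shorter peaks at the ends in all 13.

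The density of long peaks fell steeply away from the ends. TL had 6.69 long peaks per Mb at the ends and 1.14 in the rest of the chromosomes, TH had 9.49 and 1.53, YH had 11.1 and 2.04, and YL had 13.5 and 2.77. The median distance of a long peak from the nearer end was 8.51 Mb in TL, 8.13 Mb in TH, 9.02 Mb in YH and 9.8 Mb in YL. For shorter peaks this distance was 29.7 to 30.3 Mb. The plot of position along the chromosomes shows a U-shaped curve for long peaks and a nearly flat one for shorter peaks.

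**Figure D2:**
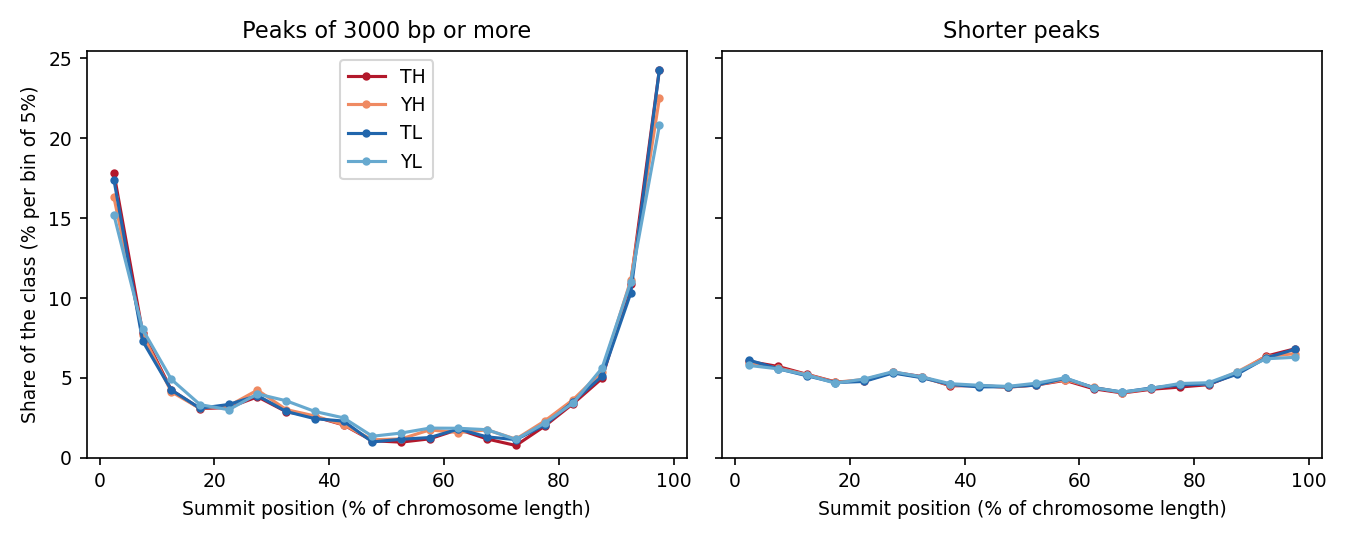
Share of long peaks (left) and shorter peaks (right) in each 5% of chromosome length, with chromosomes 1 to 18 scaled to the same length and 1 line per list. Between 55.0% and 60.9% of the long peaks, against 23.8% to 24.9% of the shorter peaks, lie in the outer 10% at each end.

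The chromosomes differed in which end carried the long peaks. On chromosome 1 both ends were alike, and the first and last 10% held 42.2% and 42% of its 1851 long peaks, summed over the lists. On chromosomes 13 to 17 the last 10% dominated. It held 73.2% of 969 long peaks on chromosome 13, where the first 10% held 1.44%, and 76.8% of 906 on chromosome 15, where the first 10% held 0.11%. On chromosome 17 the first 10% held none of the 1217 long peaks and the last 10% held 41%. Chromosomes 13 to 18 of the pig are known to have their centromere at an end, but chromosome 18 had long peaks at both ends (23.8% and 31.6%). Chromosome 10 was the least end-weighted, with 30.2% of its long peaks at both ends together.

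Chromosome 12 was the richest in long peaks and chromosome 13 the poorest in every list. On chromosome 12 there were 6.29 long peaks per Mb in TL, 9.23 in TH, 11.3 in YH and 14.4 in YL. On chromosome 13 there were 0.691, 0.938, 1.31 and 1.49. Long peaks were 7.33% of the peaks of chromosome 12 and 1.26% of those of chromosome 13, summed over the lists. At a finer scale, 1115 of 2457 bins of 1 Mb (45.4%) held no long peak, while the top 5% of bins held 37.1% of them. The fullest bin, on chromosome 8 from 145000001 to 146000000, held 47 long peaks of TH, 60 of YH, 46 of TL and 61 of YL, and long peaks were 34.1% of its 628 peaks. The next was on chromosome 6 from 156000001 to 157000000, 1.26 Mb from the chromosome's end, with 193 long peaks.

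Long peaks were denser in tags than shorter peaks, yet lower in fold enrichment. These measures come from the same peaks as the length and are given as a description. The median long peak held 123 tags in TL, 139 in TH, 133 in YH and 142 in YL, and the median shorter peak 24, 26, 28 and 29 in the same order. Per kb of peak length, the medians of long peaks were 33.9 tags in TL, 37.9 in TH, 36.2 in YH and 38.3 in YL, against 26.7, 27.4, 28.2 and 28.9 for shorter peaks. The ratio of these medians was 1.27 in TL, 1.38 in TH, 1.28 in YH and 1.33 in YL.

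The fold enrichment ran the other way. Its median was 4.55 in long peaks and 7.91 in shorter peaks of TL, 5.09 and 8.35 in those of TH, 4.39 and 7.41 in those of YH, and 4.66 and 7.63 in those of YL. The medians of long peaks were thus 0.575, 0.61, 0.592 and 0.611 of those of shorter peaks. Between 1.32% (TL) and 3.47% (TH) of the long peaks exceeded the median fold enrichment of the shorter peaks of their list. In each of the 13 sections long peaks had more tags per kb and a lower fold enrichment than shorter peaks.

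Both measures changed gradually around 3000 bp, with no step there. In TH the median fold enrichment was 9.21 in peaks from 500 to under 1000 bp, 5.51 from 2500 to under 3000 bp, 5.28 from 3000 to under 3500 bp and 4.66 at 6000 bp or more. Over the same classes the tags per kb were 25.3, 34.7, 36.2 and 44.6, while peaks under 500 bp, with 32.7, lay above the next class. The share at chromosome ends rose along with them, at 17.9%, 51.3%, 56.3% and 74.8%. On either side of the limit the peaks were nearly alike. In TH the 470 peaks less than 50 bp above it had a median of 36.6 tags per kb and a fold enrichment of 5.325, and the 460 peaks less than 50 bp below it had 36 and 5.39. In YL these values were 36.8 and 5 above it (723 peaks) and 36.5 and 4.98 below it (714 peaks).

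**Figure D3:**
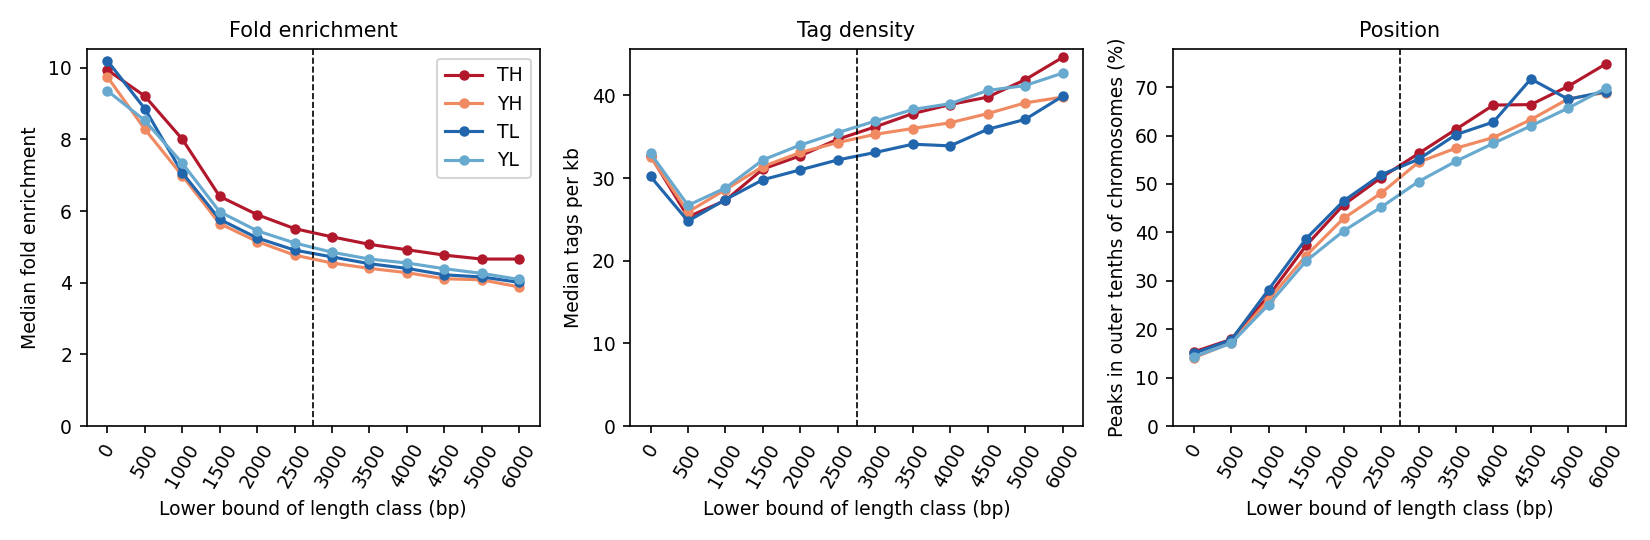
Median fold enrichment (left), median tags per kb (middle) and share of peaks in the outer 10% of chromosomes at each end (right) by length class, with 1 line per list and a dashed line at 3000 bp. From the class of 2500 bp to that of 3000 bp the median fold enrichment in TH moved from 5.51 to 5.28 and the share at the ends from 51.3% to 56.3%.

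The summit, the base with the most tags, was less often central in long peaks than in shorter peaks. It lay in the central 33.3% of the peak's length in 39% of long peaks in TL (37.8% to 40.3%), 38.3% in TH (37.3% to 39.4%), 39% in YH (38.1% to 40%) and 39.6% in YL (38.7% to 40.5%). In shorter peaks this share was 67.9% to 68.8%. Peaks of 2000 bp up to under 3000 bp did not stand apart from long peaks in this, with 38.2% to 39.5%. The median distance from the summit to the nearer edge was 1035 bp in TL, 1031 bp in TH, 1048 bp in YH and 1067 bp in YL. Between 31.3% and 32.5% lay to the left of this centre and 28.4% to 29.2% to its right, but the outermost 5% of the length at each end held almost none.

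The long peaks of the 4 lists were joined into 11790 long domains wherever they overlapped by at least 1 bp. These domains had a median length of 3772 bp, reached 12493 bp and covered 47.9 Mb, which was 1.95% of the autosomes. A long peak was present in 1 list in 5762 domains (48.9%), in 2 lists in 2735 (23.2%), in 3 lists in 1780 (15.1%) and in all 4 lists in 1513 (12.8%). A single long peak made up 5138 domains (43.6%). At the other extreme, 25 domains had 16 long peaks, with 4 in each list. As a description, the median tags per kb were 33.4 in domains of 1 list and 34.8, 36.6 and 38.8 in domains of 2, 3 and 4 lists, while the median fold enrichment was 4.77, 4.7, 4.58 and 4.61.

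A domain with a long peak in 1 list was usually a shorter peak elsewhere rather than empty. Of these 5762 domains, 3000 (52.1%) had a peak of some length in all 4 lists, and 765 (13.3%) had none outside the list with the long peak. The longest peak that the other lists had there was 2305 bp at the median, and in 39.5% of these domains it was 2500 bp or more. Within the 1513 domains shared by all lists the edges were close. Pairs of long peaks differed by 148 bp at the start and 165 bp at the end at the median, and their summits by 237 bp. In 57.4% of the pairs the summits were within 500 bp of each other.

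The same stretches recurred between lists more often for long than for shorter peaks. The summit of a long peak was covered by a peak of any length in another list in 80.1% (YL in TL) to 91.5% (YH in YL) of cases, over 12 ordered pairs of lists. For shorter peaks the range was 70.4% to 84.4%. Averaged over its 3 partners, the difference was 11.2 percentage points in TL, 8.12 in TH, 9.6 in YH and 9.7 in YL, and its mean was 9.64 ± 1.24 (SD, n = 4 lists). The two-sided exact sign-flip permutation test gave p = 0.125, again the smallest value that 4 lists allow. Against peaks of 2000 bp up to under 3000 bp the difference was -0.739 points (exact sign-flip permutation test, p = 0.125), negative in 4 of 4 lists, so a higher recurrence was not particular to peaks of 3000 bp or more.

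Being long recurred less than being covered. A long peak of another list covered 44.4% to 74.9% of the long summits, up to 32.2% of those of peaks of 2000 bp up to under 3000 bp, and 1.74% to 5.27% of those of all shorter peaks. The lowest value was for YL summits in TL, the list with the fewest long peaks, and the highest for TL summits in YL, the list with the most. Between single sections the range was wider. Of the long peaks of a section, 8.54% to 64.7% (median 36%) met a long peak in another section over 156 ordered pairs. A further 29.6% at the median met a single shorter peak, 1.66% met several shorter peaks and 33.3% met no peak, so a long peak was seldom broken into pieces elsewhere.

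**Figure D4:**
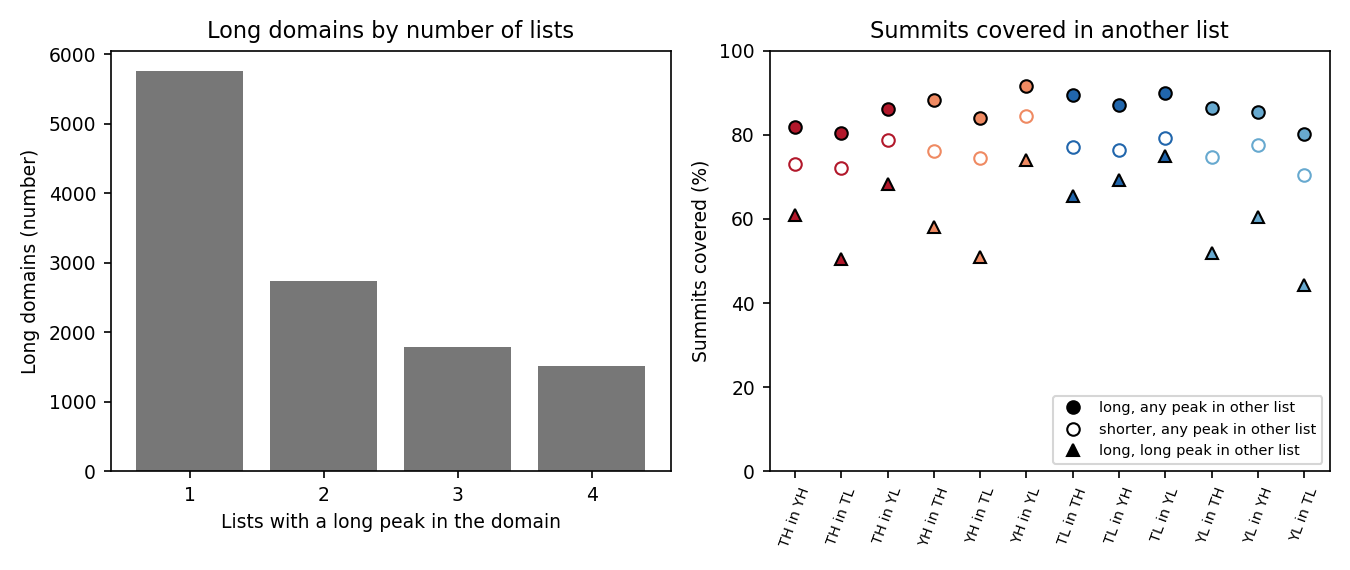
Left, number of long domains by the number of lists with a long peak; right, percentage of summits of the first list covered in the second for long peaks (filled circles), shorter peaks (open circles) and long peaks covered by a long peak (triangles). Domains fall from 5762 in 1 list to 1513 in 4 lists, and filled circles run from 80.1% to 91.5%.

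Sections of 1 list were not much more alike than sections of different lists. The median share of long peaks that met a long peak was 38.3% over the 36 pairs within a list and 34.2% over the 120 pairs between lists. Averaged over the sections of a list, the long peaks of TL recurred most often in all 12 sections of TL, YH and YL. The sections' own list came first in 4 of 12, all of them TL. Sections of 1 list differed, as in the YH section with 2925 long peaks. There 41.2%, 42.2%, 52.2% and 47.4% of the long peaks of the TL sections with 2237, 1684, 604 and 989 long peaks met a long peak. For the YL section with 820 long peaks it was 54.9%, and for the other YL sections 34.2% to 36.1%. By these averages long peaks of TL were the ones most often found again, while YL held many that were long there alone. Of the domains with a long peak in YL, 2553 of 7679 (33.2%) had none in another list, against 25% in TH, 21.9% in YH and 16% in TL. TL also had the fewest long peaks and YL the most, and the part of that in recurrence was not tested.

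To compare groups without using the peaks that chose the domains, each pair of lists was compared at domains built from the long peaks of the other pair. The number of peaks over the strongest summit of a domain, from 0 to 4, was counted in both lists. In TH vs. YH there were 8853 such domains, with 1.91 peaks per domain in TH and 2.07 in YH. In TL vs. YL the means were 1.81 and 2.22 over 8305 domains, in TH vs. TL 1.89 and 1.77 over 9668, and in YH vs. YL 2.02 and 2.2 over 6930. The mean was higher in the Yorkshire list in both comparisons of breeds, but in TH vs. YH the share of domains with any peak was higher in TH (81.6% against 79.5%). The means were also higher in the Yorkshire list at regions of any length, where they were 1.17 in TH and 1.25 in YH, and 1.12 in TL and 1.45 in YL. Sequencing depth was also higher in the Yorkshire groups, and its part was not tested.

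Complete separation of 4 peaks against 0 was rare at long domains. It was seen at 34 domains (0.384%) in TH vs. YH, 9 of them higher in TH and 25 in YH, where 0.492% of all regions with a peak of any length in the other lists were separated. In TL vs. YL there were 53 (0.638%, against 0.813% of all regions), 11 higher in TL and 42 in YL. In TH vs. TL there were 17 (0.176%, against 0.226%), 8 higher in TH and 9 in TL. In YH vs. YL there were 23 (0.332%, against 0.27%), 4 higher in YH and 19 in YL. Over all regions the splits were 225 and 679, 193 and 1262, 175 and 227, and 102 and 378 in the same order. The shares at long domains were thus near those of all regions. With 3 or more peaks against 0 they were 2.89%, 3.78%, 2.04% and 2.06% of the domains in the 4 comparisons, against 2.98%, 3.89%, 2.23% and 1.87% of all regions. The splits at long domains were then 128 and 128, 52 and 262, 141 and 56, and 34 and 109. Over all regions they were 2367 and 3121, 1352 and 5611, 2362 and 1606, and 821 and 2512. The direction in TH vs. YH and in TH vs. TL thus depended on the setting. Fisher's exact test (two-sided) took each peak over a summit as a different animal, which no label shows, and its smallest p is then 0.0286 for 4 against 4. After Benjamini-Hochberg adjustment over the domains of a comparison this was 1, and 0 domains passed. With so many domains the design could hardly give another outcome, so this count says nothing about whether single domains differ. At an unadjusted p below 0.05 the counts were the 34, 53, 17 and 23 domains above.

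The domains with the most long peaks had 16, with 4 in each list. On Sscrofa10.2 the longest of these were chr9:40841618-40850922, chr16:36780361-36788171, chr17:69673467-69680706, chr6:42239791-42246563 and chr4:142918391-142925108. They were not all at chromosome ends. The last of these lay 0.532 Mb from its chromosome's end, whereas the one on chromosome 16 was 36.8 Mb from it. The domain on chromosome 17 held 630 to 1130 tags per long peak, with summits within 69674813 to 69674896 in all 16.

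The chromosome 16 domain had the most tags of the 5, with a median of 2303.5 tags per long peak, and the chromosome 17 domain the highest median fold enrichment, 8.66 against 4.97 on chromosome 16. Its long peaks held 2219 to 2503 tags in TL, 1823 to 2202 in TH, 2185 to 3065 in YH and 2142 to 3214 in YL. Fold enrichment there was 4.95 to 5.33 in TL, 5.37 to 5.76 in TH, 4.18 to 5.11 in YH and 4.16 to 4.94 in YL. TH lay above all others in fold enrichment, while its tag counts lay below those of TL and overlapped with those of YH and YL. The summits lay within 36782252 to 36782411. The right edge did not, and the lengths fell into 2 ranges. There were 7 peaks, 2 in TL, 1 in TH, 3 in YH and 1 in YL, of 5153 to 5422 bp, and the other 9 were 6932 to 7760 bp long. Both ranges occurred in every list.

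The densest long peak of the 4 lists, chosen after the values were seen, was at chr1:100577560-100581280. This domain also had 16 long peaks, but of 3002 to 3721 bp. The tags per kb were 335 to 776 in TL, 285 to 489 in TH, 453 to 774 in YH and 576 to 784 in YL, and the lists overlapped except TH and YL. In TH a long peak at chr6:857078-862051 was denser, with 507 tags per kb. Fold enrichment at the chromosome 1 domain was 10.1 to 11.07 in TH and 6.26 to 9.91 in the other lists. The highest fold enrichment among long peaks of all 4 lists fell at chr6:952584-957614, with 11.98 in TL, 17.86 in TH, 14.62 in YH and 17.21 in YL. Here only 7 of the 16 peaks were long, and shorter peaks at the same summit in TH reached 18.83.

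Some domains had long peaks in 1 breed or at 1 elevation only. For comparison, the peaks of any length were joined in the same way into 223965 regions. There were 2129 domains (18.1%) with long peaks in Tibetan lists only, where 21.3% of the regions had peaks of any length in Tibetan lists only. For Yorkshire lists there were 4865 (41.3%, against 21.7% of the regions), for highland lists 2945 (25%, against 18.7%) and for lowland lists 3493 (29.6%, against 21%). Long peaks in both lists of a class and in neither of the others were found in 193 domains of the Tibetan lists (1.64%, against 3.36% of the regions) and in 1039 of the Yorkshire lists (8.81%, against 4.92%). For highland lists there were 346 (2.93%, against 2.25%) and for lowland lists 330 (2.8%, against 2.75%). These domains were chosen by long peaks and the regions by peaks of any length. The domains were also at least 3000 bp wide, while regions could be narrower, and the part of width in these shares was not tested. When a peak of any length was counted at the domains too, the share in 1 class only was 4.84% for Tibetan, 5.61% for Yorkshire, 4.88% for highland and 4.37% for lowland lists, and in both lists of a class only 1.59%, 2.37%, 1.42% and 1.33%, all below the regions. Most of the domains with long peaks in both lists of a class only had shorter peaks in the other lists. There was no such peak in 51 of the 193, 89 of the 1039, 59 of the 346 and 37 of the 330. The Yorkshire lists also had the most long peaks, and the part of that in these shares was not tested. The members of these classes follow from the choice, so no test was made of them.

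The longest peaks of TH and TL lay in the same place, at chr17:69490337-69499074, 0.188 Mb from the end of chromosome 17. TH had 1 peak there, of 8421 bp with 1560 tags and a fold enrichment of 6.74. TL had 3, of 7672 to 8146 bp with 720 to 971 tags and a fold enrichment of 6.6 to 7.34. YH and YL had no peak of any length there. All 4 Tibetan summits lay within 69496138 to 69496236. The region was therefore either covered by a peak of 7672 bp or more or had none.

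The Tibetan domain with the most long peaks, chr6:9517288-9522122, showed the same all-or-none form at a lower level. It had 2 long peaks in TH (185 and 194 tags), 4 in TL (105 to 173 tags) and no peak in YH or YL. At the next Tibetan domain, chr9:965313-971348, all lists had peaks, and those of YH reached 2992 bp and those of YL 2825 bp. TH had long peaks of 3096 and 6036 bp there and TL of 3079 and 3092 bp, so 3 of the 4 were close to the limit.

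The Yorkshire domains ranged from graded to nearly all or none. At chr3:116779463-116784084 there were 4 long peaks in YH (3292 to 3871 bp) and 3 in YL (3598 to 3943 bp), and TH and TL had 4 shorter peaks each, of 2305 to 2716 bp and 2340 to 2943 bp. At chr11:1786282-1790794 TH had 2 shorter peaks and TL 1 of 1663 bp, which did not reach the strongest summit of the domain. The domain chr8:130888400-130892635 had 4 long peaks in YH and 3 in YL, against 1 peak of 2306 bp in TH and none in TL.

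Among the domains split by elevation, chr6:9244098-9249584 was again all or none. It had 3 long peaks in TL (176 to 212 tags, 5145 to 5399 bp) and 2 in YL (185 and 266 tags, 5151 and 5350 bp) and no peak in TH or YH. At the lowland domain chr4:97412-101329 TH had 1 and YH 2 shorter peaks, and at chr1:6568538-6575249 TH had 1 of 2244 bp. The highland domains chr6:42927748-42932033, chr11:24554940-24558536 and chr18:10151030-10157126 had shorter peaks in both lowland lists, of up to 2948 bp, 1885 bp and 2524 bp. The longest peak of YL, at chr9:149620666-149628495, had 344 tags, a fold enrichment of 3.31 and 43.9 tags per kb. Its fold enrichment was below the median of the long peaks of YL (4.66) and its tags per kb above it (38.3), and TH had a peak of 1723 bp there.

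**Figure D5:**
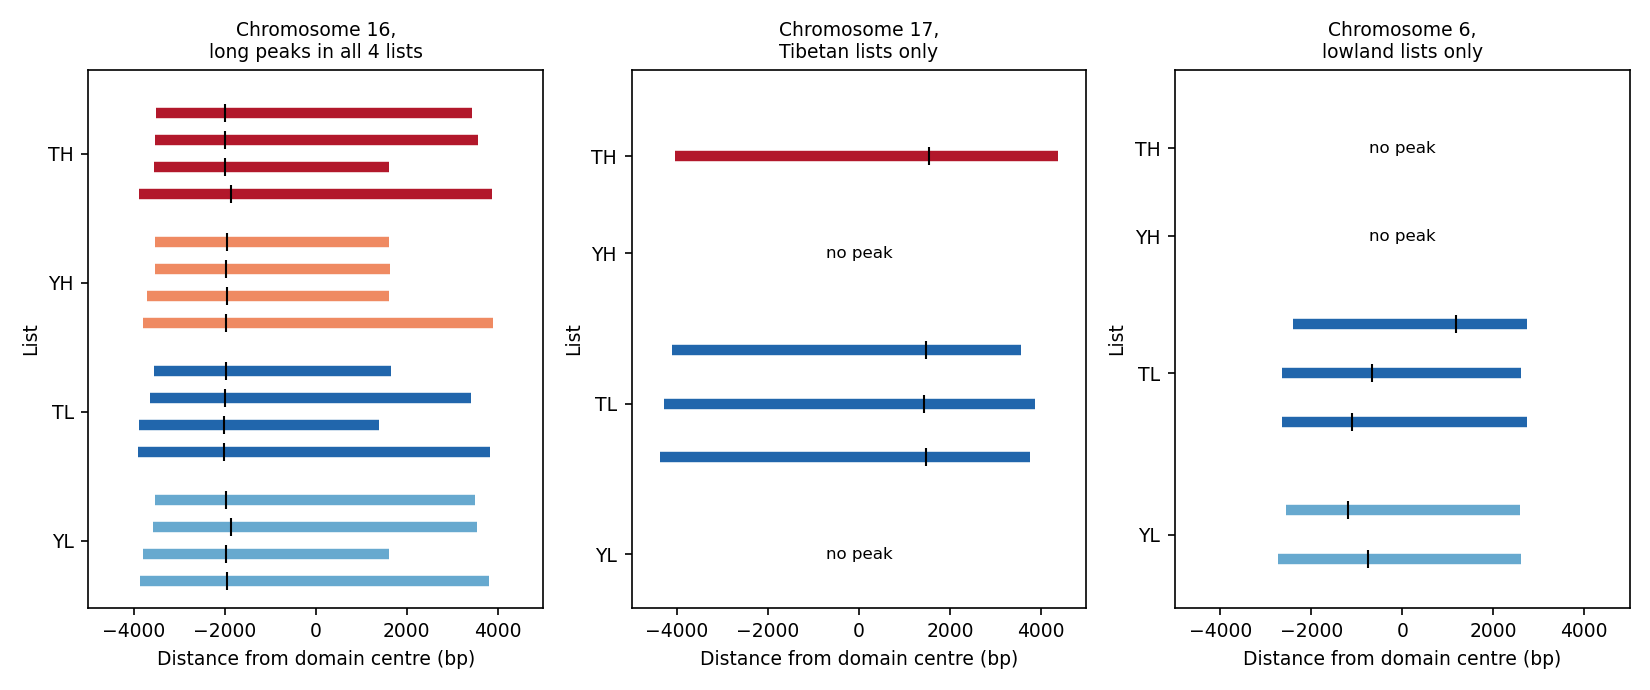
Peaks of each list (bars) and their summits (ticks) at the chromosome 16 domain with 16 long peaks, the chromosome 17 domain of the longest Tibetan peaks and the chromosome 6 domain of the lowland lists, as distance from the domain centre in bp. The chromosome 16 peaks share a summit and end at 2 places, and the other 2 domains have no peak in YH and YL or in TH and YH.

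Genes could be named for some domains from the positions of windows that the study had called as differing between groups. The part of these windows used here covers 6 chromosomes, the windows were chosen on these samples, and a domain without a gene name is not shown to lack one. Of the domains so named, that at the promoter of COX10 (chr12:60947397-60952213) had the most long peaks. COX10 makes a heme needed by cytochrome c oxidase of the mitochondrial respiratory chain. It had 2 long peaks in TL, 1 in TH, 4 in YH and 4 in YL, and the longest were 4721 bp, 3735 bp, 4802 bp and 4799 bp. Every list had 4 or 5 peaks of some length there, so all lists had peaks and differed in how many were long. Whether each animal had a peak there is not shown.

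The domain next in order, chr1:9401081-9405421 at the transcription termination region of TCP1, a subunit of a chaperonin that folds actin and tubulin, had 2 long peaks in TH, 3 in TL, 2 in YL and no peak of any length in YH. The other 10 domains had 3 long peaks each. Of these, 3 lay at a promoter or an exon. At AKAP2, an anchor protein of protein kinase A, a domain at the 3′-UTR had 3 long peaks of YL (up to 5049 bp) and shorter peaks in the other lists, and a domain in the coding sequence had 1 in YH and 2 in YL. At SLC25A51, a mitochondrial carrier, the promoter domain had 2 in YH and 1 in YL.

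The remaining domains were intronic. They lay in MED27 (a subunit of the Mediator complex), DCLRE1C (a nuclease of DNA end joining), AGPAT4 (an acyltransferase of phospholipid synthesis), ERG (an ETS transcription factor of endothelial cells), PARK2 (the ubiquitin ligase parkin), IGF1R (the receptor of insulin-like growth factor 1) and NPG3 (the antimicrobial peptide protegrin). Of the 7, TH had a long peak at DCLRE1C and TL had none at any. Of all 11790 domains, 6490 had no long peak in TH and 7971 had none in TL. The windows that named these domains were chosen on the same samples, so such absences are not independent of that choice. At MED27 and AGPAT4 TL had no peak of any length, and at IGF1R the longest peak was 1897 bp in TL, 2514 bp in TH, 3222 bp in YH and 3125 bp in YL.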

How the data were processed

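MeDIP-seq reads of 16 pig hearts were trimmed with FASTX, mapped to Sscrofa10.2 with Bowtie and called with MACS by the authors, who deposited 1 list of peaks per group. The tags of a peak are counts of reads that the authors did not normalize. The fold enrichment is a ratio given by the authors' peak caller. Both depend on sequencing depth, and uniquely mapped reads rose in the order TL, TH, YH and YL. In 100907 rows of TH the end was read from the joint position field.

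Long peaks had a length of at least 3000 bp on chromosomes 1 to 18. Chromosome lengths were the largest peak ends. Sections were runs of rows in the file's order between restarts of position, and TH, ordered by length, gave 1 (the rows without an end). Overlap was at least 1 bp. Differences between classes over the 4 lists used two-sided exact sign-flip permutation tests, and the number of peaks at domains of the other lists used Fisher's exact test. Wilson intervals (95%) cover counting error only. Domains were named by a rule: the longest and most enriched long peak of each list, the 5 domains with the most long peaks (ties by length), 3 for each breed and each elevation alone, and 12 with a gene. The members, lists and rule were chosen with earlier results of these data known. Alternatives in length, overlap, region and comparison class were run. Functions were tested on simulated data. Of the study's comparisons only window positions and gene names were used, to name genes, and its bisulfite sequencing was not used. Tests were run in SciPy 1.17.1 and figures drawn in Matplotlib 3.10.9, under Python 3.11.15 with pandas 2.3.3.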

Additional observations from a re-analysis of the deposited data

Results flagged for a closer look

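Long peaks outside chromosomes 1 to 18 were in no comparison. On X there were 68 in TL, 191 in TH, 291 in YH and 464 in YL, which were 1.78%, 2.72%, 3.8% and 5.21% of the peaks there. On unplaced scaffolds there were 254, 371, 495 and 666 in the same order, or 1.76%, 2.51%, 3.08% and 3.8%. Both kept the order of the autosomes, with YL first and TL last.

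Over 24 groups of 4 sections (8 measures in YH, TL and YL), 1 section stood apart by Dixon's criterion. In 1 section of TL 40.5% of long peaks had their summit in the central 33.3% of the peak's length, against 37.9% to 38.1% in the other 3. Chance gives about 1 such group in 20.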

How the results depend on the processing

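The number of long peaks follows the minimum length. With 2500 bp it was 10943 in TL, 14275 in TH, 17516 in YH and 21720 in YL, and with 4000 bp it was 1451, 2234, 2748 and 3734. Counting overlapping long peaks of a list once gave 3820 in TL, 5306 in TH, 5833 in YH and 7686 in YL. Against peaks of 2000 bp up to under 3000 bp the ratio of tags per kb moved from 1.32 to 1.1 and that of fold enrichment from 0.597 to 0.879. With 4000 bp these ratios were 1.37 and 0.569. The mean share of central summits was 57.3% when the central 50% was used and 39.6% with 4000 bp, against 39%. With 4000 bp there were 4365 domains, 343 of them in all 4 lists, and with peaks of 2500 bp in each list 2953 were in all 4. Leaving out each list gave 9244 to 11181 domains. The recurrence difference reversed from 9.64 to -0.739 points against peaks of 2000 bp up to under 3000 bp. With 3 or more peaks against 0 there were 256 domains in TH vs. YH, 314 in TL vs. YL, 197 in TH vs. TL and 143 in YH vs. YL, where 2.98%, 3.89%, 2.23% and 1.87% of all regions were separated. The cause of these changes was not tested, apart from the larger or smaller set that each setting selects. The excess at chromosome ends was 12.6 points against peaks of 2000 bp up to under 3000 bp and 34 points without the sections with over 3% of peaks on X, both chosen after seeing the data. The recurrence difference was 57.4 points when only peaks of 3000 bp or more were counted as covering. No paired analysis was possible because the peaks carry no animal names, and for the same reason leaving out each animal was not run. The number of long peaks in YL was 2.19 times that in TL, and 1.79 times per uniquely mapped read. The part of depth in the order of the lists was not tested further.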
